A study of Mus musculus with 21 samples.

Results

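The genes described here encode the nuclear subunits of the mitochondrial oxidative phosphorylation machinery. They were chosen by name alone: all array gene names that begin with Nduf followed by a, b, c, s or v, the 4 genes Sdha to Sdhd, names that begin with Uqcr, with Cox4 to Cox8 or with Atp5, without the muscle-type genes Cox7a1 and Cox8b. This gave 90 of 27373 gene names, read by 132 of 41174 probes. Sorted into complexes by the start of the name alone, they are 37 subunits of complex I, 4 of complex II, 8 of complex III, 16 of complex IV and 15 of complex V. Ndufa4 is counted with complex I for its name only. The names also take in 7 complex I assembly factors (Ndufaf1 to Ndufaf7), Atp5s and Atp5sl, which RefSeq now names Dmac2l and Dmac2, and the pseudogene Atp5c1-ps. The name rule itself uses no measured value.

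The animals were male C57Bl6/J mice, either wild type (WT) or JNK1 knock-outs (KO), and RNA was taken from their skin, liver and epididymal fat. JNK1 is a stress-activated protein kinase encoded by Mapk8. All mice, controls included, had a high fat diet that began at 5 weeks and ended at 44 weeks, and their age was 45 weeks. Each sample was hybridised to a one-colour Agilent array: 4 KO and 3 WT for skin, 3 and 3 for liver, and 4 and 4 for fat. The labels do not describe the knock-out allele, say whether the arrays are of separate mice, or say which arrays share a mouse, so the p-values below measure only the spread between these samples. In bulk tissue a lower level can come from fewer cells of a type or from less RNA per cell, and these cannot be told apart.

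Levels are log2 intensity minus the 75th percentile of the same array, so 0 is that percentile and a difference of 1 is a 2-fold change. Between 38.9% and 57.2% of the probes of an array were well above background. Mapk8 was lower in KO fat (-2.90 to -2.40 in the deposited table) than in WT fat (-0.70 to -0.35; difference -2.13, SE 0.143, limma adjusted p = 0.00313), and lay at -4.68 to -3.22 in KO liver and -1.98 to -1.61 in WT liver (difference -2.37, SE 0.379, adjusted p = 0.216). In skin it lay between -5.24 and -4.17 in KO and at -2.42 and -2.16 on WT 2 and WT 3, but the array labelled skin wild type 1 read -4.14, near the KO values and below the other WT arrays. Whether the Mapk8 probe lies in the deleted part is not given. The scanner file of fat WT 2 correlated more with skin arrays (r = 0.863 to 0.914 across probes) than with the other fat arrays (0.725 to 0.766), and its deposited table column did not (0.953 to 0.980 with fat), so KO and WT fat were compared on the table and the tissues on the other 20 scanner files. Of the marker lists, 13 of 13 hepatocyte genes were well above background on every liver array, 11 of 12 keratinocyte genes on every skin array and 17 or 18 of 18 adipocyte genes on every fat array. Detection alone did not separate the tissues: 16 or 17 adipocyte and 11 or 12 hepatocyte genes were well above background on the skin arrays. The log2 summed hepatocyte level was 11.6 to 12.4 in liver and at most 8.21 elsewhere. That of keratinocyte genes was 10.9 to 11.7 in skin and at most 5.67 elsewhere. That of adipocyte genes was 10.85 to 11.6 in fat, 10.1 to 11.04 in skin and at most 7.80 in liver, so fat and skin overlap. Skin also carried 21 or 22 of 22 skeletal muscle genes on every array.

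Oxidative phosphorylation moves electrons from NADH through complex I, or from succinate through complex II, to ubiquinone, then through complex III and cytochrome c to complex IV, where oxygen is reduced. Complexes I, III and IV pump protons across the inner mitochondrial membrane, and complex V, the ATP synthase, makes ATP as the protons return. Complex II does not pump and is also the succinate dehydrogenase of the TCA cycle, and its subunits are all encoded in the nucleus, whereas the other 4 complexes join nuclear subunits to a few encoded by mitochondrial DNA. The factors NRF1 and GABP (NRF2), an ETS-family factor, are known regulators of many of the nuclear genes.

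The promoters were searched because these genes are known as shared targets of those factors. RefSeq (GRCm38.p6) gave the 250 bases before the start of 74 of the members. The NRF1 core CGCATGCG, searched on both strands, was found in 8 of the 74 (10.8%), against 472 of 27025 promoters of all genes (1.75%). The ETS core CCGGAAG, on both strands, was found in 13 of the 74 (17.6%), against 2115 of 27025 (7.83%). Cox6a1, Atp5j and Atp5l held both. The 3 promoters printed here belong to the members of complexes II, IV and V with the highest mean level and hold a match, which is in capitals. CTTCCGG is the ETS core read on the other strand, and the motifs do not overlap. All 3 genes lie on the minus strand and the sequences are written 5′ to 3′ toward the gene. Sdhd is at chr9:50603850-50604099, Cox6a1 at chr5:115348959-115349208 and Atp5e at chr2:174464102-174464351. A match is a description of the letters and shows no binding.
Sdhd: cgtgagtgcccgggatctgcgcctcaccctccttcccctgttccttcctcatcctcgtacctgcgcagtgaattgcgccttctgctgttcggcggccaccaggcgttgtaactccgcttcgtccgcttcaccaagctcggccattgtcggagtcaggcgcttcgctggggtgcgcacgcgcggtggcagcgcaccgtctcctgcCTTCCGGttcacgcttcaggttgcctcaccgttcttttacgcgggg
Cox6a1: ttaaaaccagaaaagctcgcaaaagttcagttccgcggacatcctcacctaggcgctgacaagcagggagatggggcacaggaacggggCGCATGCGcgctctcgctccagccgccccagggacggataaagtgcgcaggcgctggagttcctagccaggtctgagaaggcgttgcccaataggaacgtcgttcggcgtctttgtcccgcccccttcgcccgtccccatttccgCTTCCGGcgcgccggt
Atp5e: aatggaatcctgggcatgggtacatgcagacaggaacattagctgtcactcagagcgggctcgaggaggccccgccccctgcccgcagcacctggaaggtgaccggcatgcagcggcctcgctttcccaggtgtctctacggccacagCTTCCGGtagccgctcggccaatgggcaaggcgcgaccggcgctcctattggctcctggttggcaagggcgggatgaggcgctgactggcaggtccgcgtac

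Of the 90 members, 86 were tested in each tissue. The other 4 were Cox4i2, Cox7b2, Cox7c and Cox8c, whose probes were well above background on 0 of 20 arrays. Cox4i2, Cox7b2 and Cox8c are isoforms known from lung or testis, but Cox7c is a subunit that all tissues use, so its reading gives only a bound at this probe. No member's spot was saturated.

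The first comparison set the tissues against each other. Under the 75th percentile scaling most members were highest in liver and lowest in fat. Ordered by mean, 63 of the 86 followed liver, skin, fat, 13 liver, fat, skin, 7 skin, liver, fat, 2 skin, fat, liver and 1 fat, liver, skin. The mean over the 37 complex I subunits was 6.02 ± 0.171 in liver (SD, n = 6), 5.50 ± 0.154 in skin (n = 7) and 4.99 ± 0.164 in fat (n = 7). For complex II the means were 5.52 ± 0.111, 4.1996 ± 0.260 and 4.18 ± 0.176 in the same order, and for complex III 7.06 ± 0.180, 6.48 ± 0.189 and 5.79 ± 0.180. Complex IV, without its tissue isoforms, read 7.11 ± 0.220, 6.66 ± 0.140 and 6.09 ± 0.170, and complex V 7.21 ± 0.208, 6.73 ± 0.155 and 5.96 ± 0.143. Complex II in skin and fat is the neighbouring pair in these orders that did not differ beyond its spread. In the deposited table liver was again highest for every complex, but skin no longer lay above fat. The means were 5.07 ± 0.144 in skin (n = 7) and 5.15 ± 0.097 in fat (n = 8) for complex I. They were 5.94 ± 0.240 and 6.04 ± 0.105 for III, and 6.19 ± 0.073 and 6.21 ± 0.090 for V. For I, III and V the gap lay within the SDs. Skin was lower beyond the spread for IV (6.17 ± 0.168 and 6.45 ± 0.086) and II (3.74 ± 0.197 and 4.16 ± 0.144). Levels are compared between tissues only, since probes of different genes differ in brightness.

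**Figure D1:**
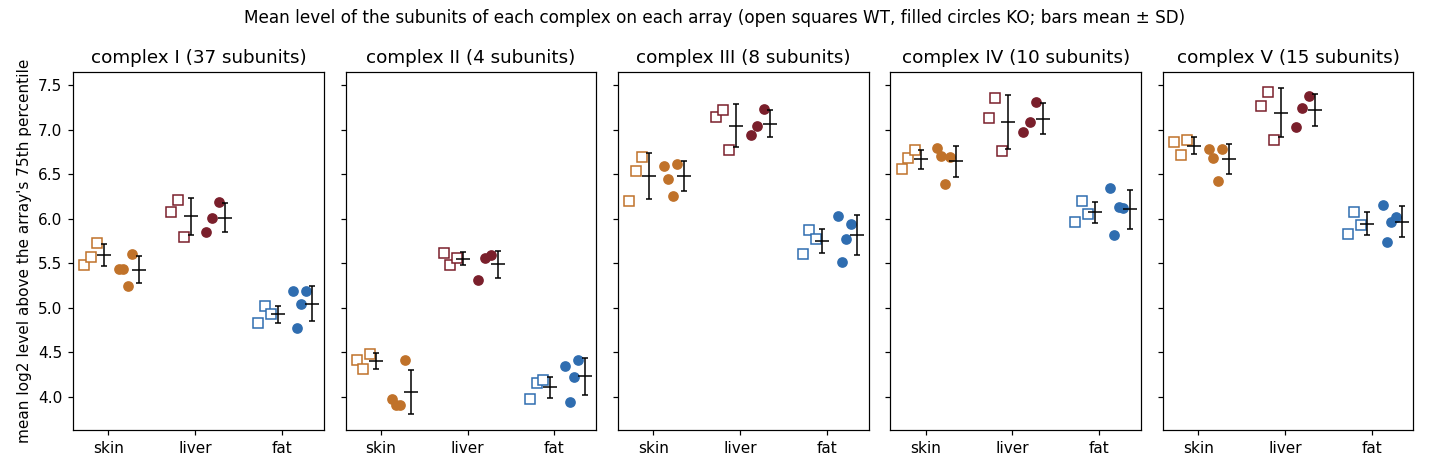
Mean log2 level over the core subunits of each complex (y axis, relative to the array's 75th percentile) on every scanner array, by tissue, with open squares for WT, filled circles for KO and bars for the group mean ± SD. Complexes I, III, IV and V lie highest in liver and lowest in fat, while for complex II the skin arrays (3.90 to 4.48) overlap the fat arrays (3.94 to 4.42). In the deposited table the means of I, III, IV and V were lower in skin than in fat, of these beyond the spread for IV only.

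Against fat, liver was higher for 81 members and lower for 1 at a limma adjusted p under 0.05 (percent called over all genes tested: 35.2 higher and 38.6 lower), with a median difference of 1.13 over the members and -0.06 over all genes. Against skin, liver was higher for 56 and lower for 2 (all genes 41.3% and 32.9%), with a median of 0.55 against 0.17. Skin against fat gave 60 higher and 7 lower (all genes 29.7% and 41.1%), with a median of 0.50 against -0.22. For 70 of the 86 members every liver array lay above every fat array (25.9% of all genes), for 28 every liver array lay above every skin array (27.7%), and for 31 every skin array lay above every fat array (19% of all genes).

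The size of these shifts rested on how the arrays were scaled. The log2 75th percentile that is subtracted ran from 7.30 to 8.51 in skin, 7.58 to 8.86 in liver and 8.89 to 9.58 in fat, so the fat arrays were brighter. Its part in the tissue differences was not tested. Quantile normalization gave 29 members higher and 10 lower in liver against fat (median 0.17), the authors' table gave 51 and 4 (0.43), normexp background correction 80 and 1 (0.94), and scaling on probes well above background on all arrays 72 and 1 (0.83). In the same order, 39, 55, 81 and 73 of 86 members were called in either direction. Of all 15965 genes tested, 11666, 11819, 10826 and 12054 were. Skin against fat turned to 18 higher and 33 lower in the table (median -0.10) and 24 and 27 after quantile normalization (0.01), with 41 and 16 after normexp. That is 51, 51 and 57 of 86 members called, against 11829, 11860 and 11593 of 16087 genes. Liver against skin ran from 33 higher and 13 lower (quantile) to 74 and 2 (normexp). That is 46 and 76 of 86 members called, against 11069 and 10188 of 14820 genes. Set against the median of all genes under the same scaling, the members' median was higher in all 5 scalings. The gap was 0.41 to 1.19 for liver minus fat, 0.10 to 0.63 for liver minus skin and 0.17 to 0.72 for skin minus fat. Scaling on probes well above background on all arrays shifts each array by 1 constant, as the 75th percentile does. Its gaps (1.19, 0.38 and 0.72) therefore repeat those of the 75th percentile scaling and are no separate result.

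Differences called in the same direction under all 5 scalings are therefore given by name. Liver was higher than fat in 27 of the 86 under all 5 (25.1% of all genes tested) and lower in 1 (26.9% of all genes). Liver was higher than skin in 27 (27.4%) and lower in 2 (29.5%), and skin was higher than fat in 16 (24.2%) and lower in 7 (27.2%). The shares higher are near those over all genes, so their number is no result about the members.

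**Figure D2:**
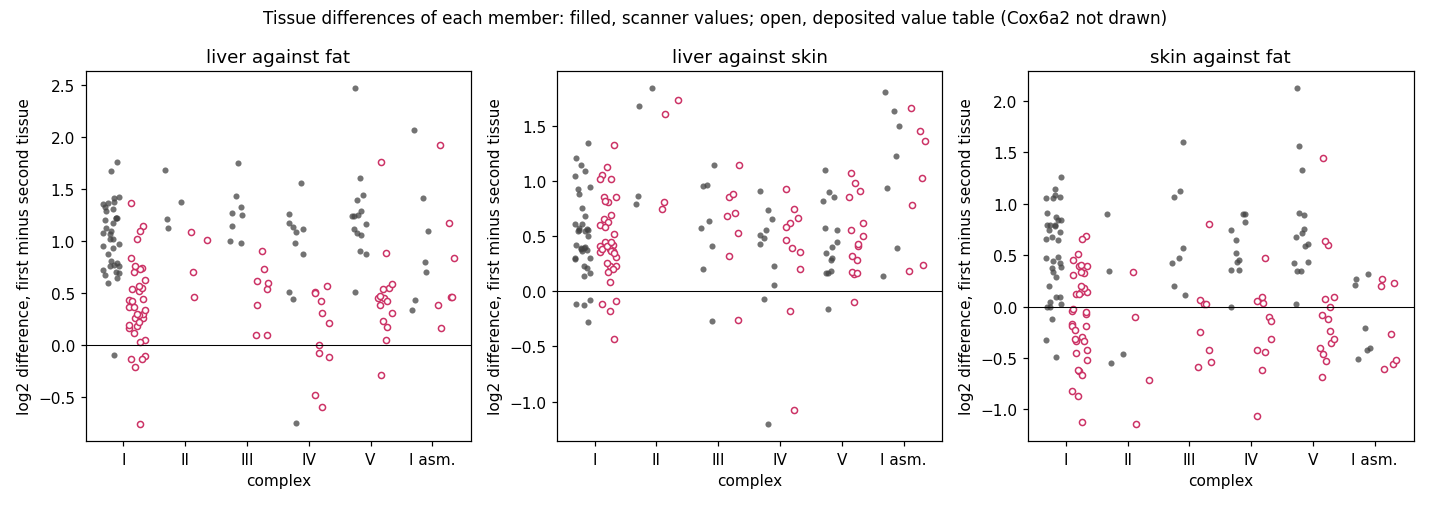
Log2 difference of each member (y axis, the named first tissue minus the second) by complex (x axis), filled from scanner values and open from the deposited table, without Cox6a2, Atp5s, Atp5sl and Atp5c1-ps. Over all 86 members, liver against fat was positive for 83 in the scanner values and 74 in the table, and skin against fat for 73 and 36.

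In complex I, the NADH dehydrogenase, 11 of 37 subunits were higher in liver than fat under all 5 scalings, among them the core subunits Ndufs8, Ndufv1 and Ndufv2. Ndufa6, an accessory subunit of the LYR motif family, read 4.46 to 5.04 in fat (median 4.63), 4.85 to 5.38 in skin (5.20) and 6.09 to 6.83 in liver (6.41). The liver arrays overlapped neither other tissue, and the difference was 1.76 against fat (SE 0.15, adjusted p = 1.12e-08) and 1.34 against skin (SE 0.15, adjusted p = 3.56e-07). Of the 37, 9 were higher in skin than fat under all 5, with Ndufs7, Ndufs8 and Ndufv2 of the core among them. Ndufb11, a membrane arm accessory subunit, read 5.72 to 6.26 in fat, 6.80 to 7.52 in skin and 6.87 to 7.65 in liver. Skin exceeded fat by 1.26 (SE 0.14, adjusted p = 4.52e-07), and liver and skin overlapped (difference 0.17, adjusted p = 0.303). Ndufa13, the complex I subunit with the highest mean, ran from 7.05 to 7.41 in fat, 7.77 to 8.71 in skin and 8.28 to 8.86 in liver. Ndufb3, a membrane arm accessory subunit, was the one complex I subunit lower in skin than fat (-0.49, SE 0.20, adjusted p = 0.0369). That call was lost without the array labelled skin wild type 1 (-0.24), which read 4.01 where the other skin arrays read 5.11 to 5.51, and without any 1 of 6 other arrays.

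The assembly factors build complex I and are not part of it. By mean, 3 of 7 followed the order liver, skin, fat and 4 of 7 the order liver, fat, skin. Liver was higher than fat for 5 of 7 (Ndufaf1, Ndufaf2, Ndufaf3, Ndufaf4 and Ndufaf6) and higher than skin for 5 of 7 (Ndufaf1, Ndufaf2, Ndufaf4, Ndufaf6 and Ndufaf7) under all 5 scalings. Ndufaf6, needed early in building the complex, read -0.30 to 0.34 in fat, -0.03 to 0.39 in skin and 1.88 to 2.25 in liver. Liver stood above every other array, by 2.07 over fat (SE 0.11, adjusted p = 2.31e-11) and 1.81 over skin (SE 0.11, adjusted p = 1.22e-10). Ndufaf2, Ndufaf4 and Ndufaf7 were lower in skin than fat under all 5 scalings. Ndufaf7, a mitochondrial methyltransferase, read 1.63 to 1.95 in skin, 2.21 to 2.51 in fat and 2.66 to 2.88 in liver. The 3 ranges do not overlap, and skin was below fat by -0.51 (SE 0.09, adjusted p = 6.7e-05).

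In complex II, liver was higher than both other tissues in all 4 subunits, and 3 of 4 held under all 5 scalings in each comparison. Sdha, the flavoprotein that oxidises succinate (its probe is at chr13:74460146-74460205, mm9, as the files place it), read 2.30 to 2.97 in skin, 2.83 to 3.48 in fat and 4.32 to 4.63 in liver. Liver exceeded skin by 1.85 (SE 0.13, adjusted p = 9.2e-10) and fat by 1.38 (SE 0.13, adjusted p = 5.22e-08), and skin was lower than fat by -0.47 (SE 0.13, adjusted p = 0.00402). Sdhb, the iron-sulfur subunit, had another order, with 3.99 to 4.63 in fat, 4.79 to 5.72 in skin and 5.80 to 6.16 in liver. Skin exceeded fat by 0.90 there (SE 0.14, adjusted p = 1.66e-05). Of the membrane anchors, Sdhc read 3.99 to 4.43 in fat, 4.07 to 5.16 in skin and 5.16 to 5.49 in liver, and Sdhd read 4.09 to 4.92 in skin, 4.81 to 5.37 in fat and 5.80 to 6.39 in liver. Sdhd was lower in skin than fat by -0.55 (SE 0.15, adjusted p = 0.00326). Within complex II, then, skin was below fat for Sdha and Sdhd and above it for Sdhb under all 5 scalings, while the sign for Sdhc differed between scalings.

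The mean of complex II was also set against the mean of the 74 core subunits on the same array, a difference that no scaling factor of an array can move. It was -1.98 to -1.51 on the skin arrays, -1.29 to -1.11 on the fat arrays and -1.21 to -0.68 on the liver arrays. In the deposited table it was -2.00 to -1.48 in skin, -1.53 to -1.17 in fat and -1.14 to -0.81 in liver. Skin lay lowest in both, overlapping fat only in the table, and fat and liver overlapped only in the scanner values. These are descriptions with no test, and only the order of the tissues can be read from them.

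**Figure D3:**
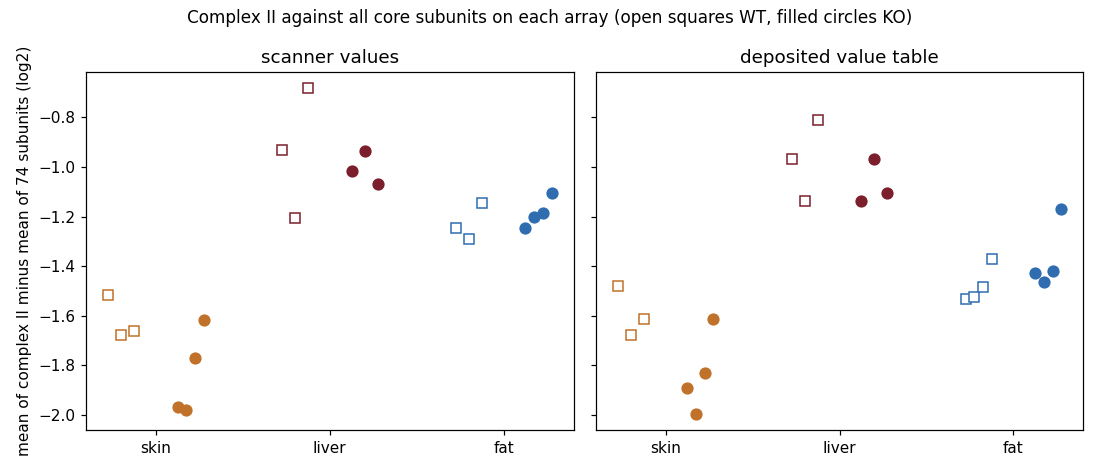
Mean level of complex II minus the mean of the 74 core subunits on the same array (y axis, log2), for scanner values (left) and the deposited table (right), by tissue, with open squares for WT and filled circles for KO. The skin arrays lie lowest in both sources, between -1.98 and -1.51 in the scanner values.

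In complex III, which passes electrons from ubiquinol to cytochrome c, liver was higher than fat for all 8 subunits and higher than skin for 6 with the 75th percentile scaling, though for 2 of the 8 the sign of liver minus fat differed between scalings. Under all 5 scalings 3 held against fat (Uqcrc1, Uqcrfs1 and Uqcrq) and 4 against skin (Uqcrc2, Uqcr10, Uqcrq and Uqcrfs1, the Rieske iron-sulfur protein). The core proteins Uqcrc1 and Uqcrc2 had different orders. Uqcrc1 read 4.79 to 5.46 in fat, 6.48 to 7.04 in skin and 5.87 to 6.77 in liver, with skin above fat by 1.60 (SE 0.16, adjusted p = 1.62e-07) and overlapping liver. Uqcrc2 read 4.80 to 5.27 in fat, 4.97 to 5.43 in skin and 6.30 to 6.39 in liver, with liver above skin by 1.14 (SE 0.11, adjusted p = 3.22e-08) and skin overlapping fat (difference 0.11, adjusted p = 0.343). Uqcrq, a small subunit near the quinone-binding core, read 6.81 to 7.35 in fat, 7.80 to 8.40 in skin and 8.24 to 9.31 in liver, 1.76 higher in liver than fat (SE 0.16, adjusted p = 1.94e-08).

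Complex IV, cytochrome c oxidase, has subunits with tissue isoforms, and its isoforms gave the largest tissue difference among the members. Cox6a2, the isoform of heart and skeletal muscle (probe at chr7:135349160-135349219, mm9), read 8.46, 7.96 and 8.43 on the WT skin arrays. On the KO skin arrays it read 6.96, 8.07, 7.45 and 8.02. In liver it ran from -1.92 to 1.29 and in fat from -1.42 to 0.99, so every skin array lay far above every other array. Skin exceeded fat by 8.004 (SE 0.47, adjusted p = 1.28e-10) and liver by 8.01 (SE 0.48, adjusted p = 7.7e-11), and liver and fat differed by -0.01 (SE 0.48, adjusted p = 0.987). Skeletal muscle markers were also highest on the skin arrays. The summed level of 22 such genes was 11.4 to 12.9 there, with 21 or 22 of them well above background. It was 1.25 to 5.71 on the liver arrays (5 to 20) and 4.06 to 5.02 on the fat arrays (11 to 16). Within fat the sum did not follow Cox6a2, as KO 1 had the highest sum (5.02) and the lowest Cox6a2 (-1.42). Within liver the highest sums, on KO 1 (5.71) and WT 3 (5.46), went with the highest Cox6a2 (1.15 and 1.29). Muscle creatine kinase, Ckm, read 6.31 to 8.35 in skin and at most -0.24 in liver and -0.84 in fat. The part of muscle in the skin samples in the Cox6a2 difference was not tested. The muscle-type subunits that the name rule leaves out had means of 6.74 (Cox7a1) and 6.57 (Cox8b) in skin, 2.76 and -1.04 in liver and 3.23 and 4.26 in fat.

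Cox6a1, the isoform of most tissues, read 8.09 to 8.65 in fat, 8.62 to 9.27 in skin and 9.04 to 9.74 in liver, a liver-to-fat difference of 1.14 (SE 0.15, adjusted p = 2.15e-06) that ran down to -0.003 in the deposited table. Its skin-to-fat difference ran from -0.62 to 0.65 over the 5 scalings, called lower in 2 and higher in 3, whereas that of Cox6a2 ran from 7.48 to 8.004. Cox6b2, known as a testis isoform, was lower in liver (-1.29 to -0.87) than in fat (-0.74 to 0.72; difference -0.75, SE 0.20, adjusted p = 0.00292) and skin (-0.17 to 0.41; difference -1.20, SE 0.20, adjusted p = 3.55e-05), under all 5 scalings. Cox6b1, its widely expressed counterpart, ran from 2.96 to 3.94 in fat, 3.77 to 5.12 in liver and 2.62 to 4.26 in skin, where the lowest value came from the array labelled skin wild type 1 and the others read 3.93 or more. Cox4i1, the common form of subunit IV, read 7.39 to 7.94 in fat, 7.95 to 8.70 in skin and 8.19 to 8.68 in liver. Of the rest of complex IV, Cox5a, which sits on the matrix side, was higher in liver than fat (1.56, SE 0.13, adjusted p = 8.34e-09) and skin (0.66, SE 0.13, adjusted p = 0.000236) under all 5 scalings, with 6.15 to 6.70 in fat, 6.99 to 7.80 in skin and 7.66 to 8.22 in liver. Cox7b was higher in liver than skin by 0.91 (SE 0.19, adjusted p = 0.000324), from 5.22 to 6.70 in skin and 6.56 to 7.29 in liver. Cox7a2 ran from 5.45 to 5.97 in fat, 5.91 to 6.47 in skin and 6.36 to 7.20 in liver. Its relative Cox7a2l ran from 3.21 to 3.78, 3.83 to 4.49 and 3.51 to 4.26 in the same order. Cox8a read 7.27 to 7.71 in fat, 7.07 to 7.90 in skin and 7.56 to 8.34 in liver.

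**Figure D4:**
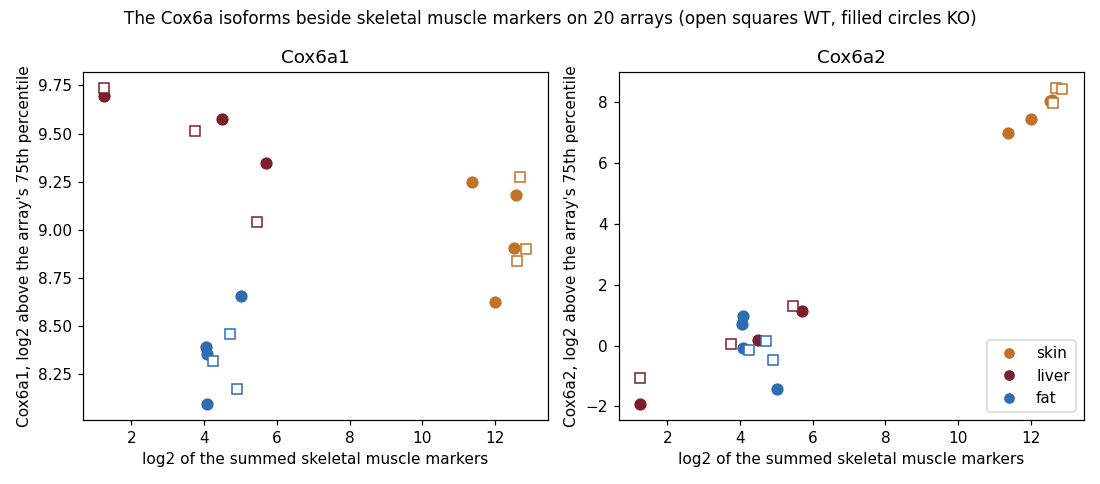
Log2 level of Cox6a1 (left) and Cox6a2 (right; y axes, relative to the array's 75th percentile, not from 0) against the log2 summed level of 22 skeletal muscle markers (x axis) on the 20 scanner arrays, with open squares for WT and filled circles for KO. Cox6a2 lies between 6.96 and 8.46 on the 7 skin arrays, where the markers are at 11.4 to 12.9, and at 1.29 or lower on the others, while Cox6a1 lies between 8.09 and 9.74 throughout.

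In complex V the genes for the c subunit, the rotating ring of the synthase, differed in their tissue order. Atp5g1, Atp5g2 and Atp5g3 are known to encode the same mature protein from different genes. Atp5g1 (probe at chr11:95934924-95934983, mm9) read 3.74 to 4.21 in fat (median 3.85), 5.48 to 6.61 in skin (5.90) and 6.10 to 6.58 in liver (6.47). Fat lay below every other array, by 2.48 to liver (SE 0.14, adjusted p = 4.54e-11) and 2.13 to skin (SE 0.14, adjusted p = 4.71e-10), under all 5 scalings, while skin and liver overlapped. Atp5g2 read 5.20 to 6.10 in fat, 6.49 to 8.09 in skin and 6.89 to 7.49 in liver, with skin above fat by 1.56 (SE 0.20, adjusted p = 2.64e-06) under all 5 and no difference called between liver and skin (-0.16, SE 0.21, adjusted p = 0.494). Atp5g3 read 6.12 to 6.66 in fat, 6.44 to 6.99 in skin and 7.22 to 7.91 in liver. Here liver stood alone, 0.90 above skin (SE 0.13, adjusted p = 6.4e-06) under all 5 scalings. Each gene is set only against itself across tissues.

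Atp5d, the delta subunit of the central stalk, read 4.72 to 5.27 in fat, 5.97 to 6.90 in skin and 6.29 to 6.86 in liver, and was higher than in fat under all 5 scalings in skin (1.33, SE 0.14, adjusted p = 3.37e-07) and liver (1.61, SE 0.15, adjusted p = 2.88e-08). Atp5f1, the b subunit of the peripheral stalk, had the other pattern, with 5.13 to 5.96 in skin, 5.46 to 6.14 in fat and 6.60 to 6.99 in liver. It was higher in liver than skin by 1.10 (SE 0.14, adjusted p = 2.05e-06) under all 5. Atp5a1 (the alpha subunit), Atp5h and Atp5j were also higher in liver than skin, and Atp5a1 higher in liver than fat, under all 5. Atp5e, the epsilon subunit, ran from 6.83 to 7.23 in fat, 7.39 to 7.97 in skin and 7.58 to 8.43 in liver. Of the names that only resemble subunits, Atp5sl (Dmac2, linked to complex I assembly) ran from -0.16 to 0.48 in fat, 0.61 to 1.85 in skin and 1.45 to 2.09 in liver. Its skin-to-fat difference of 0.91 turned to -0.34 when the probes of the gene were averaged.

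Members have 42 further probes, of which 27 were well above background on at least 18 arrays. For 23 of those 27 the sign of liver minus fat was that of the probe used. Within single slides, the medians of liver minus fat were 0.93 to 1.42 on 4 slides (82 to 84 of 86 members positive), those of liver minus skin 0.08 to 0.70 on 5 slides (50 to 82 positive), and those of skin minus fat 0.35 to 0.73 on 4 slides (64 to 80 positive).

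The array carries 4 subunits encoded by mitochondrial DNA: ND4 of complex I, CYTB of complex III, COX2 of complex IV and ATP6 of complex V. All 4 were higher than in fat, by 1.14 to 1.47 in liver and 0.88 to 1.42 in skin, and only ATP6 was higher in liver than skin (0.59, adjusted p = 0.0363), a call lost after quantile normalization (0.45, adjusted p = 0.0629) and with scaling on probes well above background on all arrays (0.32, adjusted p = 0.251). Their liver-to-fat call was lost for all 4 after quantile normalization and for all but ATP6 (0.61) in the deposited table. ND4 and COX2 were higher in skin than fat under all 5 scalings, for example by 0.61 and 0.37 in the table.

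The knock-out comparison asked what loss of JNK1 does to these genes after long high fat feeding. No member passed an adjusted p under 0.05 in skin (0.0148% of all genes called), liver (0.0226%) or fat (0.00656%, Mapk8 alone), with limma and Benjamini-Hochberg adjustment over all genes tested. Unadjusted p-values were under 0.05 for 1 of 86 members in skin, 0 in liver and 2 in fat. Over all genes tested they were so for 1063 of 13496, 807 of 13301 and 1814 of 15246. The count of members called was also 0 under all 17 settings tried for skin, 15 for liver and 18 for fat. Among those for fat, slide as a fixed block set only KO 2 against WT 4, so its count says little. The 95% interval of the KO minus WT difference lay within 1 of 0 for 76 skin, 83 liver and 81 fat members, and within 0.5 for 4, 34 and 55. Median standard errors were 0.21, 0.20 and 0.13, so small shifts of single genes, above all in skin, were not detectable with these arrays.

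**Figure D5:**
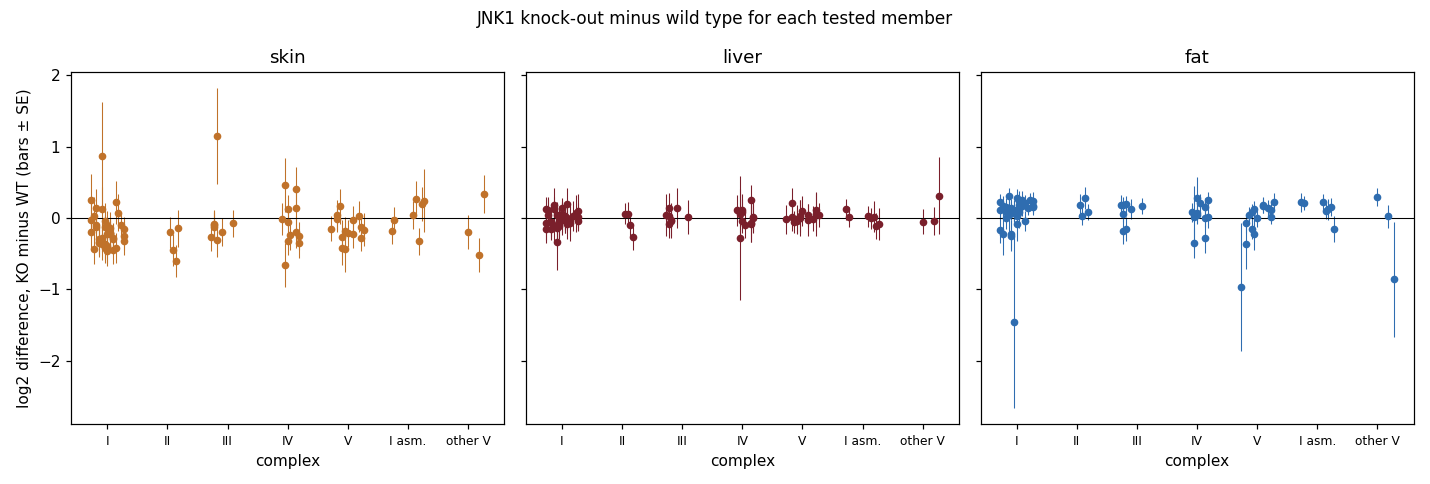
Log2 difference KO minus WT of each tested member with its standard error (y axis) by complex (x axis), in skin, liver and fat. In skin 66 of 86 lie below 0, in liver 43 and in fat 19, no member passed the adjusted threshold, and points that stand apart include Uqcrb (1.15) and Ndufs3 (0.87) in skin and Ndufa9 (-1.46), Atp5c1 (-0.97) and Atp5c1-ps (-0.86) in fat.

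In skin, 66 of 86 members had a negative and 20 a positive difference, and the median was -0.18 against -0.10 over all 13496 genes tested. By complex the median was -0.21 for I, -0.32 for II (4 of 4 negative), -0.11 for III, -0.13 for IV and -0.17 for V, and 0.04 for the assembly factors. For 7 members each KO value was under each WT value (8.17% of all genes), and for 0 above it (3.35%). Sdhc, a membrane anchor of complex II, had the smallest p. It read 4.07, 4.10, 4.08 and 4.55 in KO and 5.16, 4.57 and 4.69 in WT skin. These groups do not overlap, though KO 4 and WT 2 nearly meet. The difference was -0.60 (SE 0.23, limma adjusted p = 0.555). The next were Ndufs7, an iron-sulfur core subunit of complex I, at -0.44 (SE 0.20), Ndufb9, an LYR accessory subunit, at -0.46 (SE 0.21), Atp5sl at -0.52 (SE 0.24), Cox6a2 at -0.66 (SE 0.31) and Ndufb4 at -0.44 (SE 0.21), each at an adjusted p of 0.555. Ndufs7 read 6.38, 6.58, 6.28 and 6.73 in KO against 7.08, 6.76 and 6.97 in WT.

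The array labelled skin wild type 1, where Mapk8 lay near the KO values, stood apart for several members. It read 1.29 for Uqcrb (others 4.14 to 4.63), 1.72 for Ndufs3 (others 4.56 to 5.14) and 2.62 for Cox6b1, and the skin differences of Uqcrb (1.15, SE 0.67, adjusted p = 0.555) and Ndufs3 (0.87, SE 0.76, adjusted p = 0.607) are the highest of the members. Without it, 8 of 86 members were positive and the median was -0.17 (all genes -0.06), and Sdhc was at -0.43 (SE 0.20, adjusted p = 0.799). Other arrays moved the gap to all genes the other way: without skin WT 3 the median was -0.14 (all genes -0.13, 27 positive) and without skin KO 3 -0.11 (all genes -0.09, 26 positive). Marker lists of other cell types also differed in summed level between the skin groups, though none of their genes was called. The summed level of 11 hair follicle genes was 9.21 to 11.3 in KO and 5.60 to 7.92 in WT. That of 18 adipocyte genes was 10.1 to 10.8 in KO and 10.8 to 11.04 in WT. That of 22 muscle genes was 11.4 to 12.6 in KO and 12.6 to 12.9 in WT. Their part in the negative medians was not tested. No slide held skin of both genotypes, so slide and genotype cannot be told apart within a slide.

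In liver, 43 members were positive and 43 negative, and the median was -0.0005 (all 13301 genes -0.005). These counts rested on single arrays: 70 were positive without liver KO 1, 64 without WT 2, 24 without KO 3 and 15 without WT 3, with medians of 0.09, 0.09, -0.07 and -0.11. Every complex had a median within 0.03 of 0: -0.01 for I, -0.02 for II, 0.02 for III, 0.01 for IV and 0.01 for V. Sdhd had the smallest p, with 5.80, 5.996 and 6.39 in KO and 6.38, 6.28 and 6.32 in WT. The groups overlap, with a difference of -0.26 (SE 0.18, limma adjusted p = 0.999993). Cox7b was at 0.25 (SE 0.21), Ndufv2, a core iron-sulfur subunit, at 0.14 (SE 0.14), Ndufs1, the largest core subunit, at -0.16 (SE 0.16), Atp5b, the catalytic beta subunit, at 0.21 (SE 0.21) and Ndufs3 at -0.34 (SE 0.38). Only for Ndufv2 was each KO value over each WT value (4.8% of all genes), and none lay below (6.22%). Ndufs3 turned to 0.09 without liver KO 2. The summed level of 18 adipocyte genes was 6.16 to 7.03 in KO and 7.45 to 7.80 in WT liver. That of 6 brown adipocyte genes was 3.57 to 4.47 and 4.82 to 5.92. Of those tested, 1 of 12 and 1 of 3 were positive (medians -0.65 and -0.37), with 0 called. The hepatocyte genes overlapped, at 11.9 to 12.4 in KO and 11.6 to 12.3 in WT. Adipoq itself read -3.41 to -1.46 in KO and -4.55 to -3.20 in WT liver, against the direction of the adipocyte sum. Ucp1 was well above background on 0 liver arrays, and 3 of the 6 brown adipocyte genes were on each. The 2 fat cell sums are therefore not read as numbers of fat cells in liver. The part of cell types in the liver differences was not tested. As in skin, no slide held both genotypes.

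In fat, 67 members had a positive and 19 a negative difference, and the median was 0.11 (all 15246 genes 0.04). The median was 0.12 for complex I, 0.13 for II (4 of 4 positive), 0.15 for III, 0.06 for IV, 0.04 for V and 0.15 for the assembly factors. All 4 KO columns lay above all 4 WT columns for 11 members (4.53% of all genes) and below for 0 (2.62%). Ndufa7, an accessory subunit of the complex I matrix arm, had the smallest p. In the deposited table it read 6.47, 6.56, 6.60 and 6.55 in KO and 6.24, 6.12, 6.34 and 6.23 in WT, groups that do not overlap, with a difference of 0.31 (SE 0.10, adjusted p = 0.324). Ndufa2 was at 0.25 (SE 0.10, limma adjusted p = 0.386) from 7.08, 7.02, 7.13 and 7.16 in KO and 6.90, 6.92, 6.795 and 6.77 in WT. Cox4i1 was at 0.25 (SE 0.11), Atp5s at 0.29 (SE 0.13), Ndufb9 at 0.28 (SE 0.13) and Ndufc2, a membrane arm subunit, at 0.23 (SE 0.10), with adjusted p from 0.427 to 0.440. On the scanner values of 4 KO and 3 WT arrays 69 were positive and 17 negative (median 0.14, all genes 0.08). On the single slide that held fat of both genotypes, KO 2 minus WT 4 was positive for 37 of 86 with a median of -0.04 (all genes 0.01), against the direction of the whole set.

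The largest negative values in fat came from 1 array. Fat KO 4 read -1.33 in the table for Ndufa9, a complex I subunit of the matrix arm, where the other fat columns read 4.14 to 4.76, and its scanner spots for Ndufa9, Atp5c1 (the gamma subunit of complex V) and Ndufa5 carried the scanner's outlier mark, so that array is missing for these 3 genes in the scanner fits. Without fat KO 4 the differences went from -1.46 to -0.03 for Ndufa9, from -0.97 to 0.08 for Atp5c1, from -0.22 to 0.09 for Ndufa5 and from -0.86 to -0.004 for Atp5c1-ps, a pseudogene copy whose signal may not be separable from its parent gene. Marker lists of other cells also moved in fat, though none of their genes was called. The summed level of 12 macrophage genes was 8.31 to 9.39 in KO and 9.42 to 9.76 in WT (0 of 12 positive in the table, median -0.70), and that of 6 erythroid genes 8.56 to 9.04 in KO and 8.11 to 8.15 in WT (4 of 4 tested positive, median 1.01). For the brown adipocyte genes, at 2.14 to 3.28 in KO and 3.19 to 3.57 in WT, 1 of 4 tested was positive (median -0.79), and for the adipocyte genes 12 of 18 (median 0.30). Their part in the positive medians was not tested.

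The KO difference was also compared between tissues with interaction terms, and 0 of 86 members passed for skin minus fat (0.423% of all genes), liver minus fat (0.0564%) or skin minus liver (0.162%). For skin minus fat the members' median was -0.31 (all genes -0.14), and for the others -0.11 and -0.20 (all genes -0.07 and -0.09). An unadjusted p under 0.05 was found for 10 of 86 members for skin minus fat, and for 1907 of 16087 genes. These shares are near each other, so the 10 are no result about the members. For liver minus fat and skin minus liver 0 members had such a p, against 746 of 15965 and 1164 of 14820 genes. Sdhc was at -0.80 (SE 0.24, adjusted p = 0.216), Ndufa7 at -0.64 (SE 0.25, adjusted p = 0.366) and Ndufb9 at -0.63 (SE 0.26, adjusted p = 0.385) for skin minus fat. The opposite signs in skin and fat were therefore not shown to differ.

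Other genes of the pathway gave no call between KO and WT either. Of the 4 mitochondrially encoded subunits, 0 were called in any tissue, and in fat 4 of 4 were negative (-0.44 to -0.20) where most nuclear subunits were positive. Of 17 TCA cycle genes, which supply NADH and succinate, 0 were called, with medians of -0.31 in skin, -0.05 in liver and 0.12 in fat. Of 28 mitochondrial ribosome genes 0 were called (medians -0.15, 0.04 and 0.11), and of 14 electron carrier and ubiquinone genes 0 (-0.18, -0.01 and 0.19). Regulators of mitochondrial biogenesis gave 0 of 19 in skin, 0 of 20 in liver and 0 of 20 in fat, with medians of -0.20, -0.07 and 0.08.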

How the data were processed

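Agilent one-colour arrays of 21 samples were used. Per the file headers, the scanner files hold spot intensity from Feature Extraction 10.7.3.1, background-subtracted and not scaled between arrays. The authors' deposited value table holds log2 values. Its normalization and centring are not given in the sources used here, though the processing notes of the submitters name limma; medians of its columns ran from 5.76 (fat KO 4) upward to 6.0045 (skin KO 3). Probe positions are on mm9, per the file headers; exons and untranslated regions were not analysed here.

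Replicate spots were averaged per probe, and values are log2 intensity minus the array's 75th percentile (R 4.3.3 with the data.table package, version 1.17.8). Columns of the table were treated alike. A gene was read by its probe with the highest mean, and tested where the scanner called that probe well above background on 3 or more of the tissue's arrays. Tests used limma 3.58.1 with Benjamini-Hochberg adjustment over all genes, tested on simulated data first; calls are an adjusted p under 0.05. KO and WT were compared within each tissue, tissues and interactions over 20 scanner arrays, leaving out fat WT 2. The number of arrays limits the precision. Same-numbered KO and WT arrays did not deviate together (r from -0.19 to 0.25), so numbers were not treated as pairs.

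Members, lists and tests were chosen with earlier results of these data known. Named were the 6 members with the smallest p per KO comparison, per complex the highest member and the largest called tissue differences, the complex IV isoforms and the c-subunit genes; others named were chosen after their values were seen. Alternatives were quantile and normexp (offset 50) normalization, the table, scaling on probes detected on all arrays (chosen after seeing the data), no filter, probe averages, slide and replicate blocks, WT only, and leaving out each array.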

Additional observations from a re-analysis of the deposited data

Results flagged for a closer look

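On skin KO 4 the mean level of complex II was 4.42, where the other KO skin arrays lay between 3.90 and 3.97, and Sdhc read 4.55 there against 4.07 to 4.10 on the others. In both the gap of this array to its nearest neighbour, as a share of the range of the 4 arrays, exceeded Dixon's 95% critical value. Of 36 groups looked at 2 stood apart in this way, and chance gives about 1 in 20. Sdhc is 1 of the 4 genes in the complex II mean and both values came from skin KO 4, so the 2 are not separate results.

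The scanner file of fat WT 2, which no comparison used, read 7.90 for Cox6a2, the muscle isoform, where the other fat arrays read -1.42 to 0.99 and its own column in the deposited values 0.52. In the same file Ckm read 7.34 (other fat arrays -5.35 to -0.84), the keratin gene Krt10 8.65 and the adipokine gene Adipoq 6.58 (others 7.64 to 8.47).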

How the results depend on the processing

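Of the main results under other settings, 288 values stayed within the spread between replicates, or for counts within 1.5 times. A further 12 moved further and 1 turned its direction. The 288 include the counts between KO and WT and for the interactions, which were 0 throughout, so they say less about the tissue results. Of values of named genes, 904 kept their direction and their side of the threshold, 31 lost their call and 2 turned. The count of members called between KO and WT, and for the interactions, was 0 under every setting tried, including each array left out; the slide as a random block could not be fitted in liver. The median of liver minus fat was 0.43 in the deposited table, 0.94 after normexp and 0.83 with scaling on probes detected on all arrays. After quantile normalization it was 0.17, with 39 of 86 members and 11666 of 15965 genes called. That of liver minus skin was 0.17 after quantile normalization and 0.29 with that scaling, and 36 members were called with WT arrays only. That of skin minus fat was -0.10 in the table, 0.23 after normexp, 0.012 after quantile normalization and 0.68 with WT arrays only. The median KO difference in fat was -0.043 with slide as a fixed block. That setting rests on KO 2 and WT 4 alone, the pair on the single slide with fat of both genotypes, so it is no separate result. Among named genes, Atp5sl in skin minus fat turned to -0.34 with probe averages and the KO difference of Ndufs3 in liver, -0.34, ran from -0.71 without liver KO 3 to 0.095 without liver KO 2. Leaving out 1 array at a time gave KO medians of -0.25 to -0.11 in skin, -0.11 to 0.09 in liver and 0.07 to 0.15 in fat, and 52 to 63, 80 to 82 and 61 to 67 members called for liver against skin, liver against fat and skin against fat. With the replicate block, 0 members were called between KO and WT in each tissue (medians -0.25, -0.0005 and 0.11), and 53, 79 and 55 for liver against skin, liver against fat and skin against fat; the cause of these moves was not tested. Signal over background limits the low members, and 4 had no measured level.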
